A study of Mus musculus with 20 samples.

Results

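Osteoprotegerin, the receptor RANK and the ligand RANKL were followed through their transcripts Tnfrsf11b, Tnfrsf11a and Tnfsf11 in mouse islets and islet grafts. Each of these 3 genes, out of 19938 genes on the array, was read from the probe set that carries its symbol alone. Where a gene had several of these, the one with the highest mean over the 20 arrays was to be taken, but each member had only 1, and 0 that it shared with another symbol. These were probe set 10428604 for Tnfrsf11b on chromosome 15, 10349051 for Tnfrsf11a on chromosome 1 and 10421737 for Tnfsf11 on chromosome 14.

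RANKL, the product of Tnfsf11, binds its receptor RANK, the product of Tnfrsf11a, and recruits TRAF6, which leads to activation of NF-kB and NFATc1. Osteoprotegerin, the product of Tnfrsf11b, has no membrane anchor and acts as a soluble decoy that keeps RANKL from RANK, and it also binds the death ligand TRAIL. The system is best known for setting the number and activity of bone-resorbing osteoclasts, and RANKL and RANK are also needed for growth of the mammary gland in pregnancy.

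All mice were C57bl6/J, and RNA was hybridised to Affymetrix MoGene 1.0 ST arrays. The grafts were islets of male donors from pregnant hosts on day 12.5 (male graft P12.5, n = 3), islets of male donors from non-pregnant hosts (male graft NP, n = 3), and the same for female donors (female graft P12.5 and female graft NP, n = 3 each). The remaining arrays were from non-transplanted islets of female mice on day 12.5 of pregnancy (islet P12.5, n = 4) or not pregnant (islet NP, n = 4). Every graft host was a female mouse that the study had made diabetic with streptozotocin and that carried the graft under the kidney capsule, and the study describes no such treatment for the islet donors of the last 2 groups. The labels mark the islet arrays as a reanalysis, so array batch, streptozotocin and transplantation cannot be told apart between grafts and islets. The labels call the samples biological replicates but name no animals, and whether separate animals stand behind them is not stated, so the p-values reflect only how much these samples vary, which may be technical.

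Levels are log2 expression values after robust multichip analysis (RMA), deposited with 1 decimal, so that a difference of 1 corresponds to a doubling. Array medians lay between 5.9 and 6. The mean level of 9 beta cell markers was 10.53 to 11.18 in the grafts and 10.91 to 11.27 in the islets. Other cells differed between the sites, with 8 macrophage markers averaging 7.88 to 9.16 in grafts and 6.08 to 6.36 in islets, and 7 acinar markers averaging 4.94 to 5.34 in grafts and 8.41 to 10.43 in islets. In such bulk samples, fewer cells of a type and less RNA per cell cannot be told apart. A probe set was called when limma's adjusted p was under 0.05, with Benjamini-Hochberg adjustment over all 35511 probe sets, and the fold change was at least 1.5.

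The oligonucleotides that the study designed to measure osteoprotegerin mRNA by quantitative RT-PCR are shown because Tnfrsf11b is the transcript on which the results turn. They are written 5′ to 3′, and the RT-PCR values themselves were not used here.
Tnfrsf11b forward primer: catccaagacattgacctctgtg
Tnfrsf11b probe: agcagcttcgtgccttgatggagagcctg
Tnfrsf11b reverse primer: cttctgggctgatcttcttcc

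Tnfrsf11b was the member whose levels on all 10 P12.5 arrays lay above those on all 10 NP arrays. The islet part of this is a description, because the study chose Tnfrsf11b for its islet response. In male grafts its level was 7.9, 8.1 and 7.7 at P12.5, against 6.7, 6.3 and 6.5 at NP. In female grafts it was 8.2, 7.9 and 8.2 at P12.5, against 6.5, 6.6 and 6.5 at NP. The groups did not overlap for either donor sex, which was so for 18.1% of all probe sets in male grafts and 21.1% in female grafts. The female NP grafts lay within 1 rounding step of each other. In non-transplanted islets it was 7.5, 7.7, 8 and 7.8 at P12.5, against 6.1, 5.6, 6 and 6.1 at NP. These groups did not overlap either, as for 5.47% of all probe sets in islets. The highest single P12.5 values were in female grafts and the lowest NP value was in an islet array.

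In the grafts, osteoprotegerin mRNA rose with pregnancy of the host in both donor sexes. The rise was 2.64-fold in male grafts (log2 difference 1.40 ± 0.14, SE, 95% interval 1.09 to 1.71, n = 3 and 3, limma adjusted p = 0.00241). It was 2.96-fold in female grafts (1.57 ± 0.14, 1.26 to 1.87, n = 3 and 3, limma adjusted p = 0.0017). Both sexes together gave 1.48 ± 0.10 (2.8-fold, limma adjusted p = 5.1e-05). By p-value the probe set ranked 9 in male grafts, 4 in female grafts and 6 in both sexes together among the 35511 tested. Of the 3 members, 1 was called in each of these comparisons, where 0.932% of all probe sets were called in male grafts, 1.7% in female grafts and 3.96% in both sexes together. The call held whichever single array of the compared groups was left out. Differences then ran from 1.30 to 1.5 in male grafts and from 1.52 to 1.67 in female grafts.

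In non-transplanted islets Tnfrsf11b differed by 1.8 ± 0.14 between P12.5 and NP (SE, n = 4 and 4, 3.48-fold). This value is a description, because Tnfrsf11b is one of the 12 genes that the study took as its islet pregnancy signature for their response in islets. Without NP islet array 1, whose top value of 13.4 was lower than that of any other array, the difference was 1.85.

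**Figure D1:**
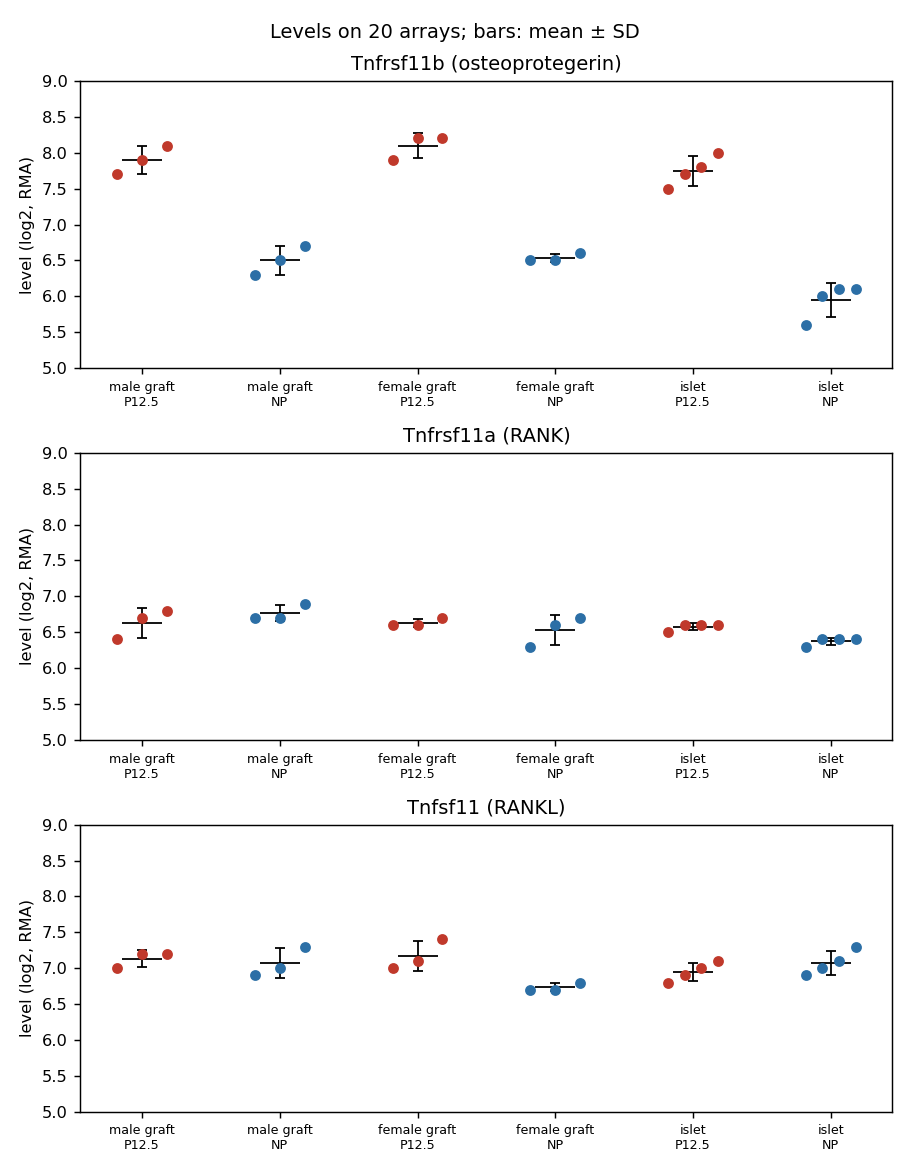
Log2 level of Tnfrsf11b (top), Tnfrsf11a (middle) and Tnfsf11 (bottom) on each of the 20 arrays. Red points are P12.5 arrays, blue points are NP arrays, and the black lines are the mean ± SD of each group (n = 3 for grafts, n = 4 for islets). For Tnfrsf11b every red point lies at 7.5 or higher and every blue point at 6.7 or lower, while Tnfrsf11a and Tnfsf11 stay between 6.3 and 7.4.

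The size of the Tnfrsf11b response did not differ detectably between male and female donor islets. The male minus female change was -0.17 with a 95% interval of -0.60 to 0.27 (limma adjusted p = 0.98). Male minus female grafts differed by -0.20 at P12.5 (-0.51 to 0.11) and by -0.033 at NP (-0.34 to 0.27). These intervals are wide, and a smaller response in male islets, by up to 0.60, was not detectable at this precision. Called probe sets made up 0.0113% of all at P12.5 and 0.0141% at NP, and no member was among them. For the donor sex interaction 0% were called by limma, while 1772 probe sets (4.99%) had an unadjusted p under 0.05.

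Set against islets of the same state, osteoprotegerin mRNA had a higher mean in female grafts, without reaching a call. In the NP state its 3 female graft levels (6.5, 6.6 and 6.5) all lay above the 4 islet levels (5.6 to 6.1). The difference was 0.58 ± 0.14 (SE, 95% interval 0.28 to 0.89, limma adjusted p = 0.00694), and its 1.498-fold size fell just short of the minimum for a call. Called probe sets made up 11% of all in this comparison, and groups did not overlap for 29.5% of probe sets, which holds for 2 of the 3 members. At P12.5 the difference was 0.35 ± 0.14 (0.05 to 0.65, limma adjusted p = 0.151), and the groups overlapped. Here 4.05% of all probe sets were called and 19.4% had groups that did not overlap, and no member was among either. The female graft minus islet change with pregnancy was -0.23 (-0.66 to 0.20, limma adjusted p = 0.647), in a comparison that called 0.0507% of probe sets.

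Ordered by mean level, Tnfrsf11b ran from female graft P12.5 (8.1 ± 0.17, SD) over male graft P12.5 (7.9 ± 0.20) and islet P12.5 (7.75 ± 0.21) to female graft NP (6.53 ± 0.06), male graft NP (6.5 ± 0.20) and islet NP (5.95 ± 0.24). The ranges of neighbours overlapped among the 3 P12.5 groups and between the NP grafts of both sexes. They were separate between islet P12.5 and female graft NP and between male graft NP and islet NP. The span from the highest to the lowest group mean was 2.15.

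Cell type markers gave the following values beside this pattern. The mean level of the beta cell markers was 10.53 to 11.04 in male grafts at P12.5 and 10.87 to 11.04 at NP, and 10.84 to 11.18 in female grafts at P12.5 and 10.88 to 11.14 at NP. The 8 endothelial markers averaged 6.91 to 8.21 in male grafts at P12.5 and 6.68 to 7.15 at NP, and 6.54 to 7.75 in female grafts at P12.5 and 6.63 to 7.55 at NP. The 8 stromal markers averaged 9 to 10.59 in male grafts at P12.5 and 9.26 to 9.86 at NP, and 8.73 to 10.09 in female grafts at P12.5 and 8.78 to 10.09 at NP. The ranges of these 3 lists overlapped between P12.5 and NP grafts of either sex. Other lists moved with pregnancy in 1 donor sex. In male grafts, where Tnfrsf11b rose as well, the 8 lymphocyte markers averaged 5.79 to 6.05 at P12.5 and 6.56 to 7.34 at NP, and the 5 dendritic cell markers averaged 6.28 to 6.38 at P12.5 and 6.64 to 7.1 at NP. In female grafts both lists overlapped, and the 12 kidney tubule markers averaged 6.12 to 7.48 at P12.5 and 7.85 to 9.03 at NP, a list that overlapped in male grafts. The part of these 3 lists in the Tnfrsf11b rise was not tested. Between grafts and islets the stromal markers did not overlap, with 8.73 to 10.59 in grafts and 6.46 to 6.99 in islets. The macrophage, kidney tubule, lymphocyte and dendritic cell markers were likewise separate and higher in grafts. The acinar markers were separate and higher in islets. The part of these lists in the Tnfrsf11b level of NP grafts was not tested.

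**Figure D2:**
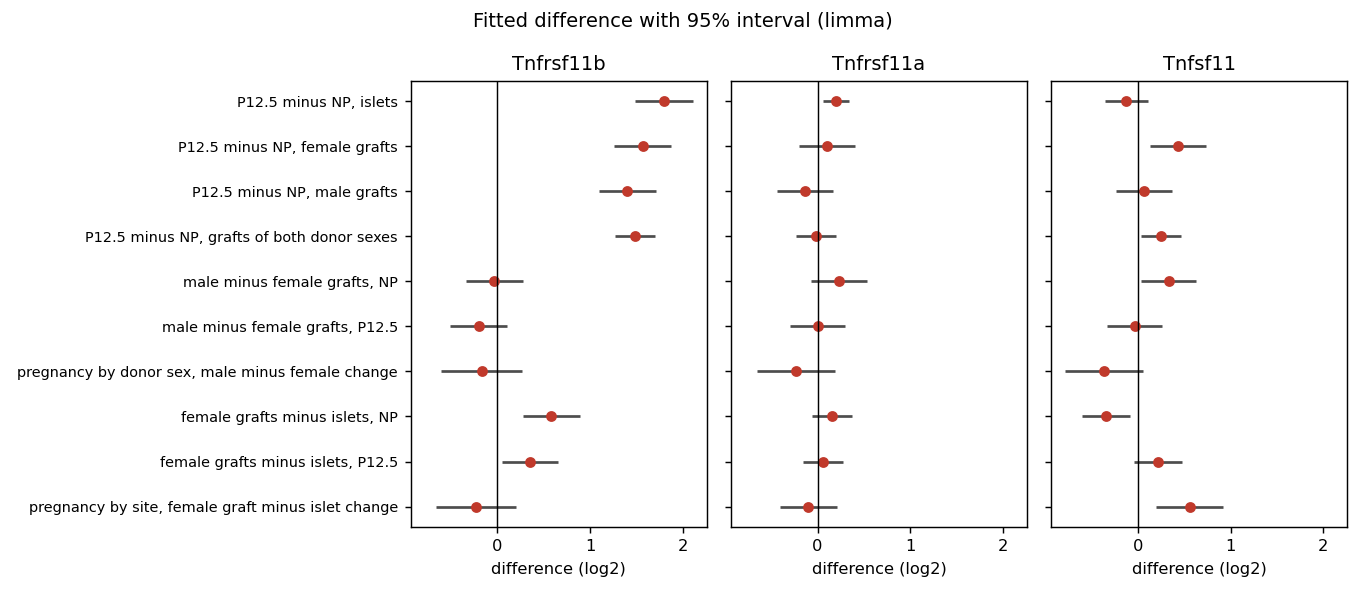
Fitted log2 difference (points) with its 95% interval (lines) for the 3 members in the 10 comparisons, where a positive value means a higher level in the group named first and the vertical line marks 0. The P12.5 minus NP differences of Tnfrsf11b lie between 1.40 and 1.8, and every interval of Tnfrsf11a and Tnfsf11 stays below 1.

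Tnfrsf11a, the receptor through which RANKL signals, varied little. Its level was 6.7, 6.4 and 6.8 in male grafts at P12.5, against 6.9, 6.7 and 6.7 at NP. In female grafts it was 6.7, 6.6 and 6.6 at P12.5, against 6.7, 6.3 and 6.6 at NP. In islets it was 6.6, 6.6, 6.6 and 6.5 at P12.5, against 6.4, 6.3, 6.4 and 6.4 at NP. The graft groups overlapped, whereas the islet groups were separated by 1 step of the rounding. In islets the groups did not overlap for 5.47% of all probe sets.

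The islet difference in Tnfrsf11a was 0.20 ± 0.06 (SE, 95% interval 0.06 to 0.34, n = 4 and 4), and it was not called (limma adjusted p = 0.231). In islets 0.724% of all probe sets were called. In grafts the difference between P12.5 and NP was -0.13 (-0.43 to 0.17) in male grafts and 0.10 (-0.20 to 0.40) in female grafts. The intervals therefore leave out any pregnancy difference in RANK mRNA of the size seen for Tnfrsf11b. Male minus female grafts gave 0.23 at NP (-0.07 to 0.53), and female grafts minus islets gave 0.16 at NP (-0.06 to 0.38) and 0.06 at P12.5 (-0.16 to 0.28). None of these was called. Its group means spanned 0.39, and all neighbouring groups in the order of means overlapped.

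Tnfsf11, the ligand that osteoprotegerin captures, did not change with pregnancy by the call rule in any setting. Its level was 7.2, 7.2 and 7 in male grafts at P12.5, against 7.3, 7 and 6.9 at NP. In female grafts it was 7.1, 7 and 7.4 at P12.5, against 6.7, 6.8 and 6.7 at NP. In islets it was 7.1, 6.8, 6.9 and 7 at P12.5, against 6.9, 7, 7.3 and 7.1 at NP. The female NP grafts had the lowest levels of all groups, and theirs was the P12.5 and NP pair that did not overlap. In female grafts this was so for 21.1% of all probe sets.

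For Tnfsf11 the female graft difference was 0.43 ± 0.14 (SE, 95% interval 0.13 to 0.73, n = 3 and 3, limma adjusted p = 0.108). The male graft difference was 0.07 (-0.23 to 0.37) and the islet difference was -0.13 (-0.36 to 0.11). Both donor sexes together gave 0.25 (0.04 to 0.46, limma adjusted p = 0.105), an interval above 0 but not a call. The test of the male against the female change gave -0.37 (-0.79 to 0.06, limma adjusted p = 0.955). The test of the female graft against the islet change gave 0.56 ± 0.17 (0.20 to 0.92, limma adjusted p = 0.188).

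The same female NP grafts entered every other Tnfsf11 comparison whose groups were separate. Female grafts minus islets at NP differed by -0.34 ± 0.12 (SE, limma adjusted p = 0.044), a change smaller than 1.5-fold. There groups did not overlap for 29.5% of probe sets. Male minus female grafts at NP differed by 0.33 ± 0.14 (limma adjusted p = 0.975), where groups did not overlap for 5.62% of probe sets. At P12.5 the corresponding differences were 0.22 (-0.04 to 0.47) and -0.033 (-0.33 to 0.27). The 12 kidney tubule markers averaged 6.12 to 7.48 in female P12.5 grafts, 6.69 to 8.32 in male NP grafts, 7.85 to 9.03 in female NP grafts and 5.42 to 5.54 in NP islets, and their part in these Tnfsf11 values was not tested. Group means of Tnfsf11 spanned 0.43, and all neighbours in the order of means overlapped.

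Of the other genes of the pathway, 92 of 98 listed were measured as single-symbol genes. The shares of all probe sets given beside their counts include 12101 probe sets without a symbol. In both donor sexes together 3 of them were called (3.26%, against 3.96% of all probe sets), with 1 higher and 2 lower at P12.5. In islets 2 were called (2.17%, against 0.724%), both higher. They were Cish and Socs2, and Cish is a signature gene chosen by the study for its islet response, so this count is a description. In female grafts 1 was called (1.09%, against 1.7%), also higher. In male grafts 0 were called by limma, against 0.932% of all probe sets, and 23 of the 92 had an unadjusted p under 0.05, against 19.5% of all probe sets.

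TRAIL, encoded by Tnfsf10, is the second ligand that osteoprotegerin binds, and it fell in the grafts of pregnant hosts. Its level was 6.2, 6.1 and 6.2 in male grafts at P12.5, against 7.1, 7.2 and 7 at NP. In female grafts it was 5.9, 6.4 and 6.5 at P12.5, against 7, 6.2 and 6.9 at NP. The male graft groups were separate, as for 18.1% of all probe sets, while 1 female NP graft lay among the P12.5 grafts. In islets it was 7, 7.2, 7.1 and 7 at P12.5, against 7, 7, 7 and 6.9 at NP.

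In both donor sexes together Tnfsf10 fell by 0.68 ± 0.15 on the log2 scale (SE, 6 and 6 arrays, limma adjusted p = 0.0158), and this call held whichever of the 12 graft arrays was left out. Alone, neither sex passed the threshold, with -0.93 ± 0.21 in male grafts (adjusted p = 0.0598) and -0.43 ± 0.21 in female grafts (adjusted p = 0.255). The male graft difference became a call with array medians subtracted (-1.03, adjusted p = 0.0359) and with all 20 arrays in the fit (-0.93, adjusted p = 0.00519). The male minus female change was -0.50 (-1.14 to 0.14), which limma did not call. In islets the difference was 0.10 (-0.06 to 0.26), and the female graft minus islet change was -0.53 (-1 to -0.06, adjusted p = 0.295). At P12.5, female grafts lay below islets by -0.81 ± 0.16 (adjusted p = 0.00486). The 8 lymphocyte markers averaged 5.79 to 6.05 in male P12.5 grafts and 6.56 to 7.34 in male NP grafts, without overlap, and 5.76 to 6.19 in female P12.5 grafts and 5.93 to 6.18 in female NP grafts, with overlap. The dendritic cell markers were likewise separate in male grafts (6.28 to 6.38 at P12.5 and 6.64 to 7.1 at NP) and overlapped in female grafts. In islets, where Tnfsf10 was 6.9 to 7.2, the lymphocyte markers averaged 5.16 to 5.4 and the dendritic cell markers 5.68 to 5.94. The part of both lists in the Tnfsf10 values was not tested.

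Lgr4, a membrane receptor that has been described as a further receptor for RANKL, was also lower in the grafts at P12.5. Its level was 7.3, 6.7 and 7.4 in male grafts at P12.5, against 7.2, 7.9 and 7.7 at NP. In female grafts it was 7.3, 7.1 and 6.7 at P12.5, against 7.9, 7.8 and 8.1 at NP. Only the female groups were separate, as for 21.1% of all probe sets. In islets it was 6.7, 7, 7.1 and 6.8 at P12.5, against 6.9, 7.2, 7.2 and 6.9 at NP.

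Both donor sexes together gave a fall by 0.68 ± 0.16 for Lgr4 (SE, limma adjusted p = 0.0221). That call was lost without male NP graft 2 (limma adjusted p = 0.052) or male NP graft 3 (adjusted p = 0.0534). It was also lost without male P12.5 graft 2, where the difference of -0.575 was under 1.5-fold (adjusted p = 0.0432). The difference was -0.90 ± 0.23 in female grafts (adjusted p = 0.067), -0.47 ± 0.23 in male grafts (adjusted p = 0.287) and -0.15 ± 0.12 in islets (adjusted p = 0.709). The female graft difference became a call with all 20 arrays in the fit (adjusted p = 0.013). At NP, Lgr4 was higher in female grafts than in islets by 0.88 ± 0.19 (adjusted p = 0.00271). The kidney tubule markers were separate between female P12.5 grafts (6.12 to 7.48) and female NP grafts (7.85 to 9.03) and overlapped between male P12.5 grafts (6.83 to 8.70) and male NP grafts (6.69 to 8.32), with 5.39 to 5.54 in islets. Their part in the Lgr4 values was not tested.

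**Figure D3:**
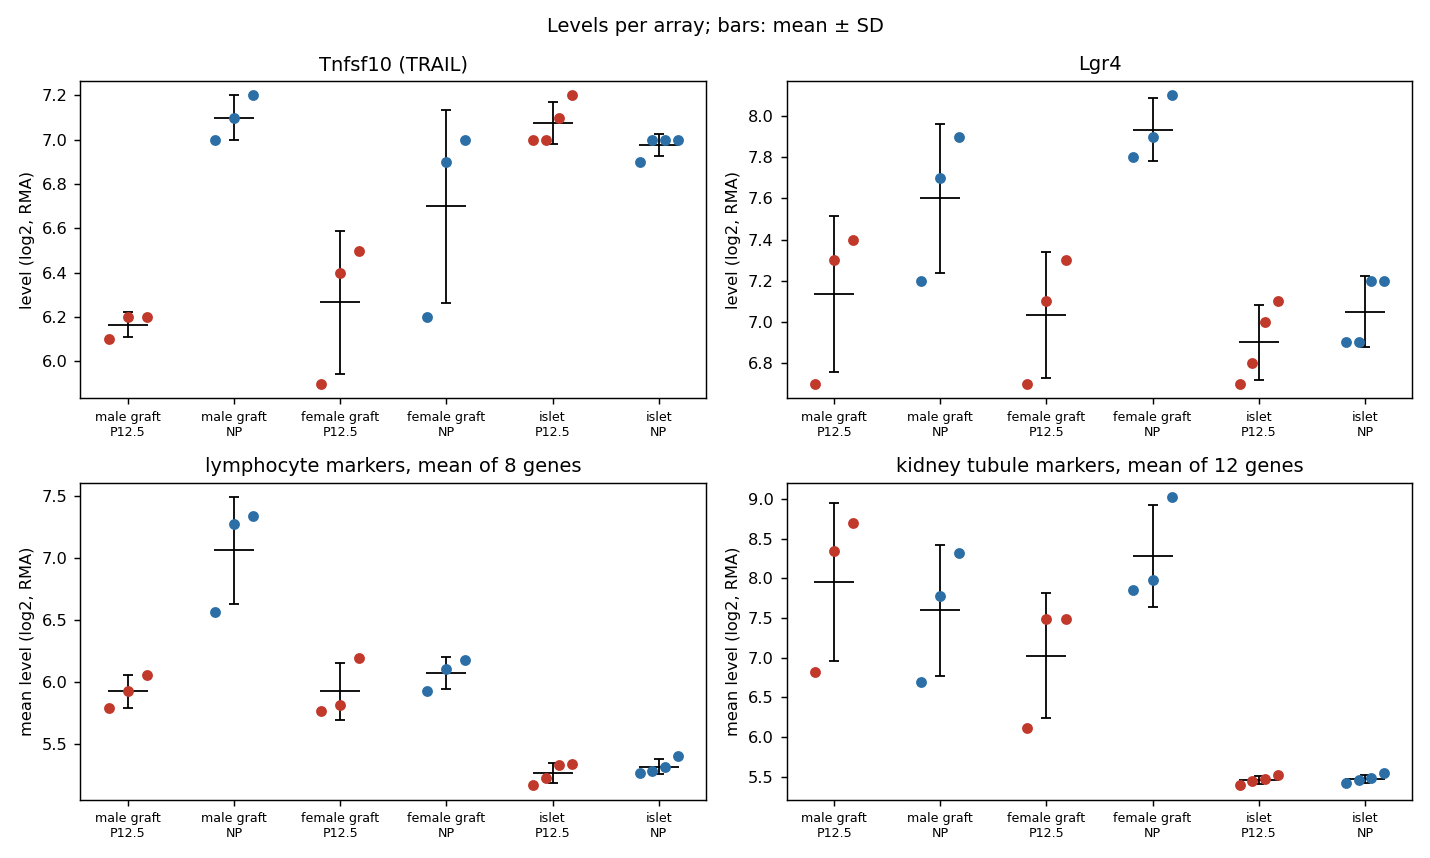
Log2 levels of Tnfsf10 and Lgr4 on each array (top) and mean log2 level of 8 lymphocyte markers and 12 kidney tubule markers (bottom), with P12.5 in red, NP in blue and black lines for the mean ± SD (n = 3 for grafts, n = 4 for islets). Axes do not start at 0. In male grafts Tnfsf10 is at 6.1 to 6.2 at P12.5 and at 7 to 7.2 at NP, where the lymphocyte markers are also highest. In islets Tnfsf10 is at 6.9 to 7.2, and the lymphocyte markers are lowest there (5.16 to 5.4). In female grafts Lgr4 is at 6.7 to 7.3 at P12.5 and at 7.8 to 8.1 at NP, where the kidney tubule markers are highest.

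Of the 10 listed ligands, receptors and proteases handling osteoprotegerin or RANKL, Tnfsf10 and Lgr4 were called with pregnancy in both donor sexes together. That comparison did not call the other 8 and called 3.96% of all probe sets. None of the 10 was called by limma in male or female grafts alone. The median difference of the 10 in both donor sexes together was -0.08, against 0.0167 over all probe sets. In islets none of the 10 was called by limma, and their median was -0.13, against 0.

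Downstream of RANK, 24 genes were measured. Traf6, the adaptor that RANK recruits, differed by 0.033 in both donor sexes together (-0.19 to 0.26) and by 0.025 in islets (-0.16 to 0.21). Nfatc1, the transcription factor that drives osteoclast formation, differed by 0.05 in both donor sexes together (-0.20 to 0.30) and by 0.025 in islets (-0.14 to 0.19). These intervals lie inside the range of a 1.5-fold change, and neither gene was called in any of the 10 comparisons.

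Akt1, a kinase that acts downstream of RANK and of many other receptors, was the gene of this list that was called with pregnancy. In female grafts its level was 9.6, 9.7 and 9.4 at P12.5, against 8.8, 8.8 and 8.9 at NP. The groups did not overlap, as for 21.1% of all probe sets, and the difference was 0.73 ± 0.13 (limma adjusted p = 0.0252). This call was kept in only 1 of 6 fits that each left out a graft array, namely the one without female P12.5 graft 3, with adjusted p of 0.0471 to 0.0975. Male grafts gave 0.40 ± 0.13 (adjusted p = 0.144) and islets 0.48 ± 0.07 (adjusted p = 0.00875, a change under 1.5-fold). The median of the list was 0.0667 in female grafts, against 0.0333 over all probe sets, -0.117 in male grafts, against 0, and 0.025 in islets, against 0.

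Among 9 measured genes of the lactogen and steroid receptor axis, through which pregnancy hormones act, the feedback inhibitors Cish and Socs2 were called in islets. Both are induced by STAT5, the transcription factor activated by the prolactin receptor. Cish was 8.8 to 9.2 in male grafts at P12.5 and 8.3 to 8.4 at NP, and 8.9 to 9.5 in female grafts at P12.5 and 7 to 8.4 at NP. It rose by 1.00 ± 0.22 in both donor sexes together (limma adjusted p = 0.019). That call held whichever graft array was left out, with differences from 0.77 to 1.12. In male or female grafts alone Cish was not called by limma. The lowest female NP graft lay at 7, against a group median of 8.4. Cish is one of the 12 signature genes as well, so its islet values are a description. Socs2 was 9.4 to 9.7 in islets at P12.5 and 8.2 to 8.5 at NP (1.10 ± 0.10, limma adjusted p = 0.000944), while in both donor sexes together its difference was 0.52 ± 0.16 (adjusted p = 0.0545). The medians of the list were 0.05 in both donor sexes together and -0.075 in islets.

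No pregnancy difference was called among 13 osteoclast genes, 14 other TNF ligands and 22 other TNF receptors in islets or in grafts of either or both sexes. Their medians in both donor sexes together were 0.0667, 0 and -0.05. Between sites, 17 of the 92 genes of all pathway lists were called at NP, all higher in female grafts than in islets (18.5%, where 5.99% of all probe sets were called higher). At P12.5 12 were called higher, where 2.83% of all probe sets were, and 1 lower, so that 14.1% were called in either direction, against 4.05% of all probe sets. These counts come from the fit on 20 arrays and were not tested against those for pregnancy. The shares are not like for like, because all probe sets include 12101 without a symbol. The lists were also chosen with earlier results of these data known.

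Osteoclast genes gave 6 of these calls in each state, namely Acp5, Ctsk, Atp6v0d2, Csf1, Csf1r and Tyrobp. Several of these are genes of the monocyte and macrophage lineage, from which osteoclasts form. Ctsk, the bone matrix protease cathepsin K, was 6.1 to 7.2 in P12.5 female grafts and 5.1 to 5.6 in P12.5 islets, and 6.8 to 7.6 in NP female grafts and 5.2 to 5.3 in NP islets. Atp6v0d2, a proton pump subunit of osteoclasts and macrophages, was 5.8 to 6.3 in P12.5 female grafts and 4.3 to 4.7 in P12.5 islets, and 6.1 to 7.4 in NP female grafts and 4.5 to 4.8 in NP islets. The other 7 osteoclast genes were not called at either state and went both ways. Oscar, Calcr and Ocstamp had lower means in female grafts than in islets at both states, while Mmp9 and Trem2 had higher means at both. Itgb3 had a higher mean in female grafts only at P12.5, and Dcstamp only at NP. The list median was 0.45 at P12.5 and 0.308 at NP, against -0.0667 and -0.075 over all probe sets. The macrophage markers, which share Csf1r with this list, averaged 7.88 to 9.16 in P12.5 female grafts and 6.23 to 6.36 in P12.5 islets, and 7.99 to 8.59 in NP female grafts and 6.08 to 6.35 in NP islets. Their part in these differences was not tested.

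Mmp14, a membrane protease that can release RANKL from the cell surface, was higher in female grafts than in islets by 2.22 ± 0.25 at P12.5 (limma adjusted p = 3e-05) and by 1.91 ± 0.25 at NP (adjusted p = 7.9e-05). Esr1, the oestrogen receptor, was higher by 1.20 ± 0.23 at P12.5 (adjusted p = 0.00371) and by 1.36 ± 0.23 at NP (adjusted p = 0.00046). Tnfsf13b, which encodes the B cell factor BAFF, was higher by 1.51 ± 0.30 at P12.5 (adjusted p = 0.00571) and by 1.68 ± 0.30 at NP (adjusted p = 0.000776). Tnfrsf1b, a receptor for TNF, was higher by 1.56 ± 0.24 at P12.5 (adjusted p = 0.000688) and by 1.09 ± 0.24 at NP (adjusted p = 0.0033). In female grafts and islets of the same state, the groups of all 4 genes were separate, as for 19.4% of all probe sets at P12.5 and 29.5% at NP. The stromal markers (8.73 to 10.09 in female P12.5 grafts and 6.46 to 6.95 in P12.5 islets, and 8.78 to 10.09 in female NP grafts and 6.64 to 6.99 in NP islets) and the macrophage markers were separate between the same groups, and their part in these differences was not tested.

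The genes whose profile was most like that of Tnfrsf11b were found by the root-mean-square difference over the 20 arrays, after each gene was centred on its own mean. Among 19937 genes this was smallest for Matn2, an extracellular matrix protein (0.25), followed by Kirrel3os (0.306), Car8, a member of the carbonic anhydrase family (0.307), Neb, which encodes nebulin (0.326), and Sftpd, which encodes surfactant protein D (0.348). The median over all genes was 0.877. Matn2, Car8 and Neb are also signature genes of the study, chosen like Tnfrsf11b for their islet response. All 5 had P12.5 minus NP differences between 1.2 and 2.35 in each setting. The comparison uses the same arrays and the same pregnancy contrast for all genes and describes likeness in level over these samples. Tnfrsf11a and Tnfsf11 had group means spanning less than 1, so no such list was made for them.

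**Figure D4:**
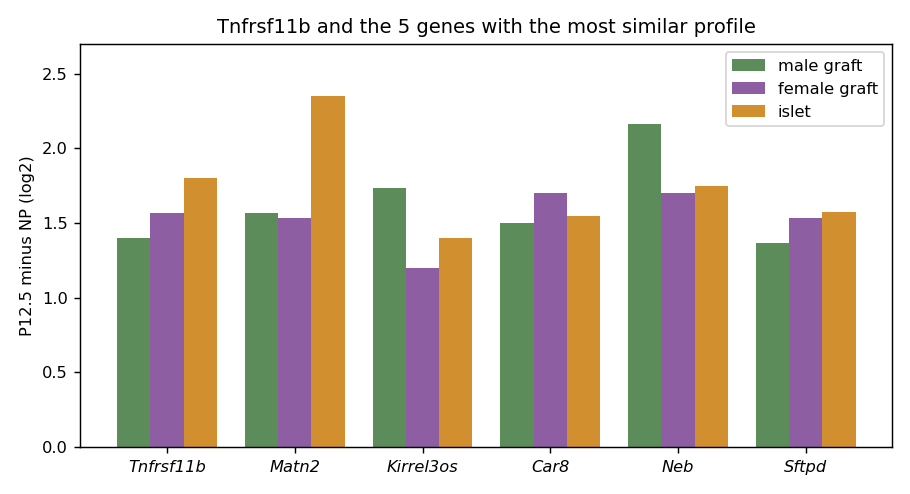
P12.5 minus NP difference in mean log2 level for Tnfrsf11b and the 5 genes most like it, with bars for male grafts, female grafts and islets (n = 3 and 3 for each graft pair, n = 4 and 4 for islets, no error shown). Tnfrsf11b has 1.40, 1.57 and 1.8, and the largest bar is that of Matn2 in islets at 2.35.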

How the data were processed

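The deposited log2 values came from the authors' RMA run, for which they used aroma.affymetrix. They are rounded to 1 decimal and were used as they stand for 35511 probe sets on 20 arrays. The sources used here do not give the genome build of the probe annotation. Array medians were 5.9 to 6, Pearson's r between replicates was 0.971 to 0.989 across probe sets, and 0 arrays were identical. The number of arrays limits the precision.

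Groups came from the sample labels. Differences were fitted with limma 3.58.1 (R 4.3.3; lmFit, then eBayes, two-sided, Benjamini-Hochberg adjustment over all probe sets). Islets were fitted on 8 arrays, graft comparisons on 12, and grafts against islets on all 20. The effect in both donor sexes is the mean of the within-sex differences. The fit was tested on simulated data.

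The members, pathway lists and marker lists were chosen with earlier results of these data known. Named were the 3 members, Tnfsf10, Lgr4, Traf6 and Nfatc1. Also named were up to 4 called genes of a list in a comparison and the 5 genes most like Tnfrsf11b. Beyond that rule, all 13 osteoclast genes were named. Prlr, Tnfsf12, Tnfsf13, Traf3, Chuk and Nfkb1 had no single-symbol probe set. Alternatives were subtraction of array medians, renewed quantile normalization, other arrays in the fit, and eBayes with trend and robust options. Further ones were a filter on low values, the replicate number as a block, and leaving out each array of the compared groups in turn.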

Additional observations from a re-analysis of the deposited data

Results flagged for a closer look

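In groups of 4 arrays, Dixon's test flagged 1 array for 12 gene and group pairs. In each pair the other 3 arrays shared the same rounded value, so the flag followed from the rounding whatever the gap. The usual rate of about 1 in 20 groups by chance does not apply to such values. Values are rounded to 1 decimal, and the gaps were 0.1 to 0.3, often a single rounding step. For Tnfrsf11a the flagged arrays were the lowest of islet P12.5 (6.5) and of islet NP (6.3). In islet P12.5 they were the highest arrays for Eda2r (4.8), Tnfsf13b (5.3) and Traf6 (7.9). In islet NP they were the lowest arrays for Akt1 (9.1), Csf1r (6.5), Jun (6.6) and Tnfsf10 (6.9) and the highest for Atp6v0d2 (4.8), Ctsk (5.3) and Rel (6.7).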

How the results depend on the processing

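The calls for Tnfrsf11b between P12.5 and NP held in male grafts, female grafts and both sexes together under every alternative run. The islet call held too and is a description, because the study chose Tnfrsf11b for its islet response. Its NP difference between female grafts and islets became a call when array medians were subtracted (0.63, limma adjusted p = 0.0059) and with the replicate block (0.62, adjusted p = 0.0117), and lay between 0.47 and 0.63 with an array left out, called in 5 of 7 fits. Tnfrsf11a and Tnfsf11 were called in none of the 10 comparisons under any alternative. Subtracting medians turned Tnfsf11 in male grafts to -0.033, Nfatc1 in male grafts to -0.067, Nfatc1 in both sexes to -0.017 and Traf6 in both sexes to -0.033, and renewed quantile normalization turned Traf6 in islets to -0.0088. Tnfsf10 in male grafts and Lgr4 in female grafts gained a call under 2 and 1 of the alternatives.

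The number of probe sets called depended on the fit. With all 20 arrays in it, 1720 were called in female grafts (602 in their own fit), 1059 in male grafts (331), 15 between male and female NP grafts (5) and 49 between male and female P12.5 grafts (4). Male grafts gave 542 with medians subtracted. The female graft minus islet change gave 18 calls, against 10 with medians subtracted, 32 with renewed quantile normalization, 231 on the arrays of the contrast alone, 30 with trend and robust options and 34 without low probe sets. Deviations from the group means correlated by -0.242 to 0.226 between same-numbered P12.5 and NP arrays, so replicate numbers were not taken to pair samples. The replicate block gave 132 calls in islets (257 without it), 266 in female grafts, 124 in male grafts and 1 for the donor sex interaction (0), and Cish in islets lost its call (adjusted p = 0.0558).

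With each array left out in turn, calls ranged from 184 to 299 in islets, 48 to 260 in female grafts, 46 to 479 in male grafts, 947 to 1724 in both sexes, 4 to 25 and 4 to 5 between male and female grafts at NP and P12.5, 3381 to 4143 and 771 to 1417 between female grafts and islets at NP and P12.5, and 1 to 15 for their change. Differences ranged for Tnfrsf11a from -0.017 to 0.183 in female grafts and -0.075 to 0.042 in both sexes, for Tnfsf11 from -0.017 to 0.183 in male grafts and -0.117 to 0.083 between male and female P12.5 grafts, and for Tnfrsf11b from -0.133 to 0.067 between male and female NP grafts. They ranged for Nfatc1 from -0.017 to 0.05 in islets, -0.017 to 0.133 in female grafts, -0.1 to 0.183 in male grafts and -0.017 to 0.125 in both sexes, and for Traf6 from -0.042 to 0.058 in islets and -0.0083 to 0.117 in both sexes. Each member has 1 probe set, so a mean over several was not run. The cause of these shifts was not tested.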
